A study of Mus musculus with 3 samples.

Results

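The RNAs described here are 5 kinds of small structural RNA that work inside protein complexes: 7SK (Rn7sk), 7SL (Rn7s1 and Rn7s2, 2 copies of the same gene), the RNA of ribonuclease P (Rpph1), the RNA of ribonuclease MRP (Rmrp) and the RNA of telomerase (Terc). Members were the rows of the deposited count table whose gene symbol is one of these 6. The symbols took 7 of the 48709 rows, since Rn7sk is listed at 2 overlapping rows. In the libraries, 7SL and RNase P RNA were among the rows with the most counts, RNase MRP RNA lay far below them and telomerase RNA stood at 15 to 49 counts per library, whereas both Rn7sk rows held no count. Rows annotated elsewhere in the genome as copies of 7SK held up to 45168 counts per library.

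The samples are 3 libraries of 1 group, wild type (WT), made from total RNA of cells that the labels call lung smooth muscle cells of the mouse. The animals carried a CreERT2 transgene of smooth muscle actin, a Cre recombinase that tamoxifen activates, and tdTomato, a red fluorescent protein. At an age of 8 weeks they were given 75 mg/kg of tamoxifen by intraperitoneal injection on 10 days in succession, and 2 months later their lungs were digested and cells were sorted. There is no untreated or second group, so what follows describes levels in these libraries and how far the libraries differ; no label states that the libraries are of different mice, so p-values measure only the spread between these samples, which may be technical.

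Library totals were 18896263, 18355813 and 16877297 counts for WT libraries 1, 2 and 3. Levels are given as CPM, that is counts in every 1000000 of the library, and a row at 0 could still hold up to 3 counts, or 0.159, 0.163 and 0.178 CPM, for counting error only. The labelled cell type was checked against fixed marker lists, of which the contractile smooth muscle genes summed to 150 to 195 CPM over 12 genes. Among its defining markers, smooth muscle actin (Acta2) was at 13.2 ± 3.36 CPM and smooth muscle myosin heavy chain (Myh11) at 24.3 ± 6.82 CPM (SD, n = 3), while calponin (Cnn1) had 0, 7 and 5 counts. Markers of other lung cells summed to more, namely 1562 to 2102 CPM over 12 lymphocyte genes, 870 to 1850 CPM over 8 fibroblast genes, 485 to 825 CPM over 8 endothelial genes, 3049 to 15332 CPM over 8 epithelial genes and 266 to 875 CPM over 8 myeloid genes. One gene carries most of each of the last 2 sums: the club cell gene Scgb1a1 was at 13192, 2632 and 7641 CPM and the lysozyme gene Lyz2 at 704, 189 and 235 CPM. The epithelial genes Epcam, at 5.56 ± 1.03 CPM, Krt8, at 7.67 ± 4.68 CPM, and Cdh1, at 9.75 ± 3.31 CPM, lay below the mean of Acta2. The other 5 of the 8 epithelial genes had a mean CPM of at least 10. The median of the epithelial list was 5.19 ± 1.06 log2(CPM + 1), against 3.42 ± 0.20 for the contractile list. The levels below are thus those of the sorted material as a whole; that a cell type is fewer in number and that it holds less RNA per cell cannot be told apart in bulk RNA.

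7SL is the scaffold of the signal recognition particle (SRP), which meets ribosomes as they begin to make secreted and membrane proteins and brings them to the endoplasmic reticulum. 7SK holds the transcription elongation kinase P-TEFb in an inactive state, from which it is released when RNA polymerase II is to leave its pause near promoters. RNase P and RNase MRP are relatives that share most of their proteins; the former trims the leader from transfer RNA precursors and the latter cuts a precursor of ribosomal RNA. Telomerase RNA carries the template from which the reverse transcriptase Tert adds telomere repeats to chromosome ends. RNA polymerase III transcribes the first 4 kinds, and RNA polymerase II transcribes telomerase RNA.

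The sequences of 7SK and 2 of its copies, Rpph1, Rmrp and Terc are shown because the counts turn on which bases a row shares with other rows. They are the transcripts of GENCODE release M21 for the mouse build GRCm38, written as DNA from the 5′ end, and each transcript has the same length as its row of the table. Of an RNA longer than 300 bases, the first 300 are printed. In Rn7sk and its copies Gm24447 and Gm26315, capitals mark the longest stretch that is identical between the copy and Rn7sk (in Rn7sk, the stretch shared with Gm24447). In Rmrp capitals mark the bases that are antisense to a transcript of Ccdc107, in Rpph1 a tandem repeat, and in Terc a motif of the telomere template.
Rn7sk: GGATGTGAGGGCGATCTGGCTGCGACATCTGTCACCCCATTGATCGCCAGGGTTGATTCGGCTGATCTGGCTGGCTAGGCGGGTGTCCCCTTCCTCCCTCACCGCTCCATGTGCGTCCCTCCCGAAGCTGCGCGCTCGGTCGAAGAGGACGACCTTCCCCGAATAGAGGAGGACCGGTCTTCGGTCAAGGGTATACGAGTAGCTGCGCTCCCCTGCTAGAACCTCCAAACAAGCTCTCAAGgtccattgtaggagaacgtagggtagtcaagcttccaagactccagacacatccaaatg
Gm24447: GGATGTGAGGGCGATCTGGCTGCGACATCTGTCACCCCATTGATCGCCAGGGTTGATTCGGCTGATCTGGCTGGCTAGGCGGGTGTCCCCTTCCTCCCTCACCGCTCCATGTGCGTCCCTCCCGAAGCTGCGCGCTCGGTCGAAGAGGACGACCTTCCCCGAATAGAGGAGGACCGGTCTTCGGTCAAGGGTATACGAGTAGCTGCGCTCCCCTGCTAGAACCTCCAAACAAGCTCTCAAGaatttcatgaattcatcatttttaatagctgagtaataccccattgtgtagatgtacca
Gm26315: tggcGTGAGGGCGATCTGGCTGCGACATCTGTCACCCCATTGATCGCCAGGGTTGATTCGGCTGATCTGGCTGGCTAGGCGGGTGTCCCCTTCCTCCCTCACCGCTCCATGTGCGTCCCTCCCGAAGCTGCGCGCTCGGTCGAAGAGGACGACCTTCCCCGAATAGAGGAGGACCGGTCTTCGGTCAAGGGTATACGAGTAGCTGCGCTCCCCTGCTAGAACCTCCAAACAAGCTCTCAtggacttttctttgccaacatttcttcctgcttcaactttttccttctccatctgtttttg
Rpph1: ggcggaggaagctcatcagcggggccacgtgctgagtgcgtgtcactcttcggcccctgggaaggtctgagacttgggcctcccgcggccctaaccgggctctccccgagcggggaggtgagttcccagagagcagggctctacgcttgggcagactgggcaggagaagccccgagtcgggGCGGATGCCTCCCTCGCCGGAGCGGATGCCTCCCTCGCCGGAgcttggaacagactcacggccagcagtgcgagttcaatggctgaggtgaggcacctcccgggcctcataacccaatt
Rmrp: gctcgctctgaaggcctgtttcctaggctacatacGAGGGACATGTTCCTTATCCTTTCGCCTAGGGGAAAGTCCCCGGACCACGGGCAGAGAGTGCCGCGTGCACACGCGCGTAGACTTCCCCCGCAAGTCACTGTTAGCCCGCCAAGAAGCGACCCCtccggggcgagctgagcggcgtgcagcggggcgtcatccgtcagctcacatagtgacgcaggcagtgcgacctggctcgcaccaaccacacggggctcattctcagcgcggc
Terc: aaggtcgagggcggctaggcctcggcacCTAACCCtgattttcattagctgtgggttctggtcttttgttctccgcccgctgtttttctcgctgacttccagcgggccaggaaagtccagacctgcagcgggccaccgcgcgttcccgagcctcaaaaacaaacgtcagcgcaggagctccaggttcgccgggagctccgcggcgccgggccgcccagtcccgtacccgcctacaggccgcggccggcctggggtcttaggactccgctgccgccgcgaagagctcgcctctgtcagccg

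The 7SL rows came first by level. Rn7s1 (ENSMUSG00000099021, chr12:69159295-69159594, plus strand, 300 bases, 108 bases from the ribosomal protein gene Rps29) had 79303, 65343 and 26147 counts in libraries 1, 2 and 3, or 4197, 3560 and 1549 CPM. Libraries 1 and 2 were high and library 3 was low. The mean was 3102 ± 1382 CPM (SD, n = 3), at place 19 of all rows. Of the 7 member rows, 4 (Rn7s1, Rn7s2, Rpph1 and Rmrp) had a mean CPM of at least 10, against 18.4% of all rows. Here 7SL counts as 2 rows. Rn7s2 (ENSMUSG00000099250, chr12:69361182-69361481, minus strand, 300 bases) had 79300, 65341 and 26147 counts. Its 300 bases are identical to those of Rn7s1, and the 2 rows differed by 3, 2 and 0 counts, which is 0.00378% of Rn7s1 in library 1 and 0.00306% in library 2. The counts of the 2 rows are therefore treated below as 1 measurement, since these values cannot tell the 2 loci apart.

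Each 7SL row overlaps 2 annotated microRNA-class rows on its own strand, AC099934.2 and AC099934.1 at Rn7s1 and AC157822.2 and AC157822.1 at Rn7s2. These small rows cover 70 and 77 bases of the RNA, leaving 153 of 300 bases inside no other row, and each had 0 counts in the 3 libraries. Further rows carry parts of the 7SL sequence. Gm26461 (chr9:88553236-88553525) is identical to bases 1 to 104 of Rn7s1 and had 54086, 46164 and 18684 counts, 2161 ± 929 CPM. That was 68.2%, 70.6% and 71.5% of the Rn7s1 count in the same library. Rn7s6 (chr6:69516339-69516629), identical to bases 42 to 214, had 22751, 16932 and 6566 counts, or 28.7%, 25.9% and 25.1% of Rn7s1. Both copies were high in libraries 1 and 2 and low in library 3, as was Rn7s1. In all, 13 other rows aligned with Rn7s1 over at least 100 bases, 11 of them had a count and 5, with Rn7s2 among them, had at least 100 counts in each library.

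The mRNAs of the SRP proteins were detected in full and at moderate levels. Protein itself was not measured, here or for the other complexes below. All 12 rows matched for the particle, its receptor and the Sec61 channel had a mean CPM of at least 10, against 35.8% of 22005 nuclear protein-coding rows (59.4% of these rows reached a mean CPM of 1). Their median was 5.54 ± 0.07 log2(CPM + 1), against 3.49 ± 0.07 for the 15597 nuclear protein-coding rows tested. Srp54b, one of the gene copies of the subunit that binds the signal sequence, led the list with 2939, 3531 and 4041 counts, 196 ± 42.1 CPM; newer annotation calls its gene ID Srp54c, and it was counted once. Srp54a, another copy, was at 80.2 ± 17.0 CPM, Srp72, a subunit bound to 7SL, at 79.4 ± 5.24 CPM, and the receptor subunit Srprb was lowest at 11.6 ± 4.02 CPM. Srp14, which binds the Alu domain of 7SL with Srp9, had 1022, 1059 and 860 counts. Per kilobase, Rn7s1 stood above Srp14 by 7.71 ± 0.70 on the log2 scale (8.27, 7.94 and 6.92 in libraries 1, 2 and 3), a 209-fold difference.

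The 7SK locus itself was listed at 0. The table gives Rn7sk as a misc_RNA row (ENSMUSG00000065037, chr9:78175303-78175633, minus strand, 331 bases) and as an snRNA row (ENSMUSG00000110451, chr9:78175305-78175632, 328 bases). The second row lies inside the first over its whole length of 328 bases, and each had 0 counts in libraries 1, 2 and 3. The 7SK copies were far from 0. Gm24447 (ENSMUSG00000065911, chr15:93234363-93234700, plus strand, 338 bases) had 31403, 45168 and 21475 counts, or 1662, 2461 and 1272 CPM, with library 2 high and library 3 low. Its mean was 1798 ± 606 CPM, at place 34 of all rows. Gm26315 (ENSMUSG00000065824, chr2:7076094-7076414, minus strand, 321 bases) had 31167, 44803 and 21310 counts, which was 99.2% of Gm24447 in each library. The 2 copies differ from each other beyond the stretch in capitals but share with Rn7sk bases 1 to 241 and 5 to 239.

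Other copies held fewer counts the less of Rn7sk they repeat without a mismatch. Gm26035 (chrX:152923453-152923760) holds 107 of the 282 words of 50 bases that make up Rn7sk and had 12559, 18450 and 8595 counts, or 40.0%, 40.8% and 40.0% of Gm24447. Gm24146 (chr5:139844930-139845250) holds 42 of the words and had 1768, 2781 and 1210 counts, or 5.63%, 6.16% and 5.63% of Gm24447. Gm23624, Gm22058 and Gm23973, with 10, 10 and 7 words, had 52 to 185 counts per library. This order is over 7 rows that share sequence, and is given as a description. It did not hold for the 7SL copies, where Rn7s6 shares 124 words with Rn7s1 and Gm26461 only 55, yet Gm26461 had more counts. Of the words of Rn7sk, 68.1% occur in these 7 copies of 7SK. The last 90 bases of Rn7sk, only partly printed above, lie in none of these words. On the same strand, 105 noncoding rows aligned with Rn7sk over at least 100 bases. Of these rows, 60 had a count and 5 had at least 100 counts in each library. The table gives counts per row and not positions of reads, so reads from the 7SK locus and from its copies cannot be told apart.

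**Figure D1:**
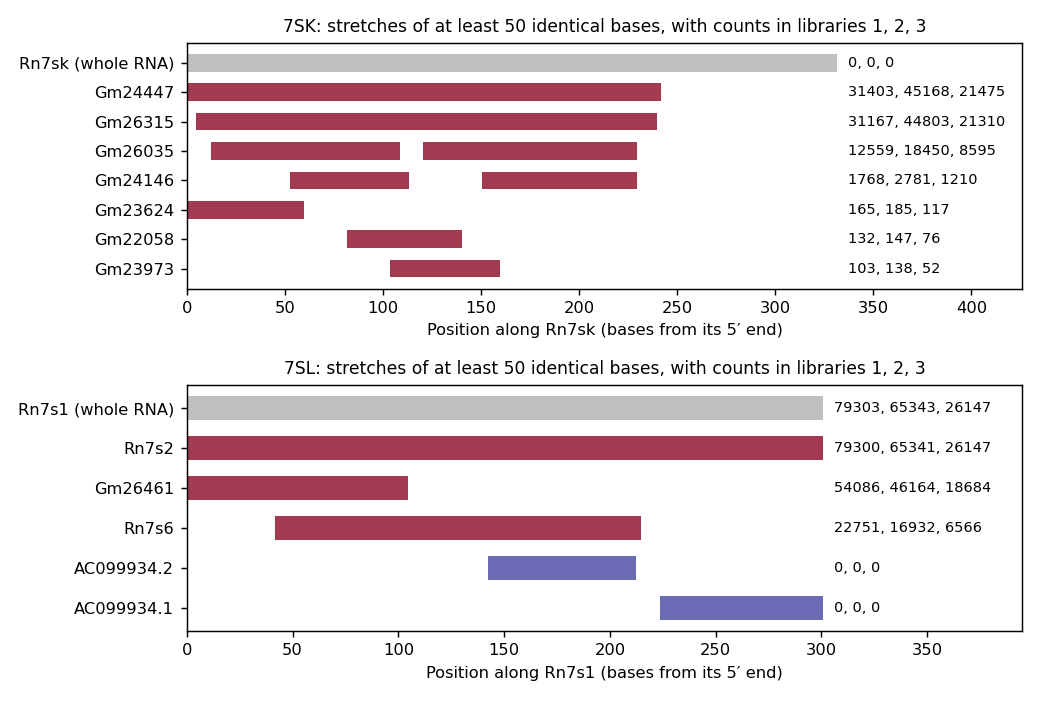
Stretches of at least 50 bases that rows of the table share with Rn7sk (upper panel) and Rn7s1 (lower panel), drawn by position in bases from the 5′ end of each RNA, with the counts of libraries 1, 2 and 3 at the right; grey bars are the whole RNA, red bars copies elsewhere and violet bars rows that lie inside Rn7s1. The Rn7sk row is at 0 in each library while Gm24447, identical over bases 1 to 241, has 31403, 45168 and 21475 counts.

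An overlap between rows went with a count of 0 over the table as a whole. Of 132 small RNA rows that lie with at least 90% of their length inside another small RNA row, 130 (98.5%) had no count, against 4026 of 5951 (67.7%) other small RNA rows. The 132 rows include both Rn7sk rows and the microRNA-class rows inside Rn7s1 and Rn7s2, so they are not separate from the zeros described above. Of 40 pairs of overlapping noncoding rows that carry the same symbol, 34 (85.0%) had no count at either row, Rn7sk and the RNase P-like gene Rprl1 among them. The sources used here do not say how reads in overlapping rows, or reads that match several places, were counted, and the part of that step in the counts of 0 was not tested.

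The mRNAs of proteins that bind 7SK or that it regulates were detected throughout. Of 16 genes of the 7SK particle, P-TEFb and its partners, 15 had a mean CPM of at least 10, and their median was 6.29 ± 0.17 log2(CPM + 1). Mepce, the enzyme that caps the 5′ end of 7SK, was at 67.1 ± 11.6 CPM, and Larp7, which binds its 3′ end, at 39.4 ± 9.25 CPM. Hexim1, the inhibitor that 7SK brings to P-TEFb, had 1823, 3115 and 3203 counts, 152 ± 49.1 CPM, with library 1 low. Its relative Hexim2 was lowest of the list at 1.75 ± 0.28 CPM. Cdk9, the kinase of P-TEFb, had 731, 729 and 720 counts, 40.4 ± 2.06 CPM, and did not vary between libraries beyond counting error. Among the highest genes of the list were the RNA-binding protein Hnrnpa2b1 at 530 ± 78.8 CPM and Aff4, a scaffold of the super elongation complex, at 252 ± 42.0 CPM. Per kilobase, the 7SK copy Gm24447 stood above Larp7 by 8.28 ± 0.78 on the log2 scale and above Hexim1 by 6.94 ± 0.72. It stood above the nuclear noncoding RNA Malat1 by 1.83 ± 0.74 per kilobase, but 2.54 below it (log2 ratio of -2.54) when counts were not divided by length.

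RNase P RNA was close behind. Rpph1 (ENSMUSG00000092837, chr14:50807449-50807767, minus strand, 319 bases) had 22686, 40135 and 9953 counts, or 1201, 2187 and 589.7 CPM. Library 2 was high and library 3 low, a 3.71-fold range. The mean was 1326 ± 806 CPM (SD, n = 3), at place 49 of all rows. Its sequence holds a unit of 21 bases repeated in tandem at positions 182 to 223 (in capitals). In GENCODE M21 a transcript of Ccnb1ip1 contains bases 36 to 268 of Rpph1, but the Ccnb1ip1 row of the table lies outside Rpph1 and had 0 counts in each library. The nearest row is Parp2, a DNA repair gene that starts 178 bases away on the opposite strand, which had 300, 314 and 389 counts. Per kilobase, Rpph1 exceeded Parp2 by 9.45 ± 1.2 on the log2 scale (9.72, 10.5 and 8.16).

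The annotated relatives of Rpph1 held few counts. Rprl3, 94.1% identical to the first 204 bases of Rpph1, had 12, 39 and 11 counts, and Rprl2, 93.1% identical over the same bases, had 14, 7 and 6. The 2 rows of Rprl1 had 0 counts. Rpph1 exceeded Rprl3 by 10.05 ± 0.56 on the log2 scale per kilobase. Of 10 noncoding rows that aligned with Rpph1 on the same strand over at least 100 bases, 4 had a count and 0 had at least 100 counts in each library. Among the copies of 7SK and of 7SL, 5 each reached that level.

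RNase MRP RNA was lower by more than an order of magnitude. Rmrp (ENSMUSG00000088088, chr4:43492788-43493058, minus strand, 271 bases) had 721, 1006 and 327 counts, or 38.2, 54.8 and 19.4 CPM. The order of libraries was that of Rpph1, with library 2 high and library 3 low, and the range was 2.83-fold. The mean was 37.4 ± 17.7 CPM (SD, n = 3). Rmrp overlaps Ccdc107, a protein-coding gene on the opposite strand, over 159 bases, of which 124 (positions 36 to 159, in capitals) lie in a Ccdc107 transcript. Ccdc107 had 96, 80 and 94 counts, 5.0 ± 0.61 CPM, so its libraries were nearly even where those of Rmrp were not. The sources used here do not say whether counting used strand, and reads of the 2 genes in the overlap cannot be told apart. Per kilobase, Rmrp exceeded Ccdc107 by 5.26 ± 0.93 on the log2 scale (5.38, 6.12 and 4.27). GENCODE M21 lists a second Rmrp entry with the same 271 bases, which was not used here.

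The ratio of the 2 ribonuclease RNAs was steadier than either level. This was not particular to the pair, since log2 ratios to Terc had SDs of 0.17 for Rmrp and 0.19 for Rpph1. Within libraries, Rmrp stood at -4.74, -5.08 and -4.69 relative to Rpph1 on the log2 scale per kilobase. The mean was -4.84 ± 0.21 (SD, n = 3), so that Rpph1 was 28.6-fold higher per kilobase. The length of Rmrp includes the 159 bases that overlap Ccdc107, and the part of this overlap in its counts was not tested. The mRNAs of the shared proteins were low beside both ribonuclease RNAs. Of 12 genes of the RNase P and RNase MRP proteins, 4 had a mean CPM of at least 10, and the median was 2.73 ± 0.21 log2(CPM + 1). The small subunits Pop5 and Pop4 were at 17.0 ± 2.31 and 11.9 ± 2.35 CPM, and Nepro, an RNase MRP factor, was at 13.3 ± 2.11 CPM. Pop1, the largest protein of both enzymes, had 42, 118 and 60 counts, and Rpp25 had 1, 0 and 2 counts and was lowest. Rpp21, the highest of the list per kilobase at 8.39 CPM per kilobase, stood below Rmrp at 138 ± 65.4 CPM per kilobase.

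Telomerase RNA was present at low counts. Terc (ENSMUSG00000064796, chr3:96414437-96414859, minus strand, 423 bases) had 28, 49 and 15 counts, or 1.48, 2.67 and 0.889 CPM. Library 2 was again high and library 3 low, and the mean was 1.68 ± 0.91 CPM (SD, n = 3), with 31.2% of rows above it. None of its words of 50 bases occurs in another GENCODE transcript, and its relative 1600017P15Rik, 82.6% identical over 407 aligned bases, had 0 counts at both of its rows. The row begins 26 bases ahead of the RefSeq gene (397 bases). The motif CTAACCC, part of the template for telomere repeats, was searched on both strands and occurs once in Terc, at positions 29 to 35 of the row and 3 to 9 of the RefSeq gene. Of 23197 GENCODE transcripts of 200 to 500 bases, 439 (1.89%) hold it on either strand, so its presence alone is a description. The one row within 5 kb of Terc, the pseudogene Gm21960, had 20, 10 and 11 counts.

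Tert, the reverse transcriptase that uses this template, had 17, 26 and 26 counts, 1.29 ± 0.34 CPM, and was lowest of its list. Per kilobase, Terc exceeded Tert by 3.53 ± 0.85 on the log2 scale (3.81, 4.21 and 2.58), but only by 0.27 ± 0.87, within its SD, when counts were not divided by length, since Tert has 5730 bases of exon. Actrt3, a further gene paired with Terc, had 1, 1 and 2 counts; Terc exceeded it by 4.75 ± 0.94 on the log2 scale per kilobase, a ratio that rests on those 4 counts. The other 12 genes of telomerase and Terc maturation were higher than Tert. Papd5, a polymerase that adds adenines to the 3′ end of Terc, was at 69.6 ± 11.1 CPM, dyskerin (Dkc1), which binds its H/ACA domain, at 30.1 ± 1.64 CPM, and Parn, which trims it, at 27.5 ± 3.16 CPM. The median of the 13 genes was 3.96 ± 0.23 log2(CPM + 1). Shelterin, the complex that coats telomere repeats, had a mean CPM of 10 or more at 7 of 7 genes and a median of 4.47 ± 0.22, with Terf2 highest at 29.98 ± 4.65 CPM, followed by Tinf2 at 25.8 ± 13.5 CPM, and with Pot1a lowest at 16.6 ± 1.57 CPM.

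**Figure D2:**
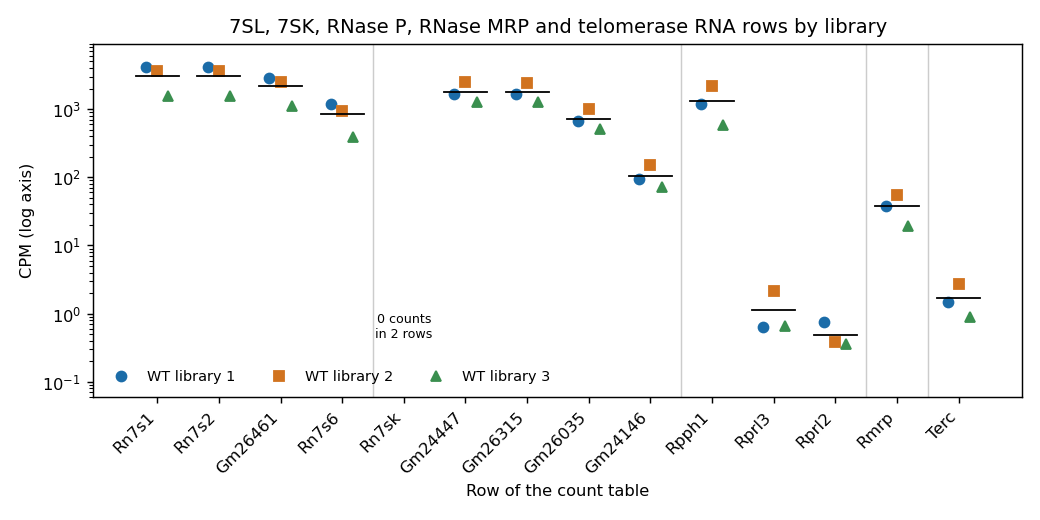
CPM on a log axis of each row in WT libraries 1, 2 and 3 (points) with the mean (bar), for the 7SL, 7SK, RNase P, RNase MRP and telomerase RNA rows and their copies, from left to right. Library 3 is the lowest point at Rn7s1, Rpph1, Rmrp and Terc, and Rn7sk has no point because both of its rows hold 0 counts.

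Per kilobase, which allows levels of different genes to be set side by side, the order was Rn7s1 at 10340 ± 4606, Rpph1 at 4155 ± 2526, Rmrp at 138 ± 65.4 and Terc at 3.97 ± 2.14 CPM per kilobase (SD, n = 3). Rn7s1 and Rpph1 overlap in their ranges over libraries, yet Rn7s1 was higher within each library, by 1.89, 0.79 and 1.48 on the log2 scale. Rpph1 exceeded Terc by 9.94 ± 0.19, a 979-fold difference, and Rmrp exceeded Terc by 5.10 ± 0.17, a 34.2-fold difference. Row lengths include 159 bases of Rmrp and 147 of Rn7s1 that lie in other rows, and the part of these overlaps was not tested. The 7SK copy Gm24447, at 5320 ± 1792 CPM per kilobase, would fall between 7SL and RNase P RNA. Its ratio to Rpph1 was 0.39, 0.09 and 1.03 on the log2 scale, a mean of 0.50 ± 0.48 that is close to its SD, so the order of these 2 is not settled by 3 libraries. With 3 libraries and 1 group, an exact sign-flip test could reach no p under 0.25, and the ratios carry no test. Rn7s1 and Gm24447 share sequence with Rn7s2 and Gm26315, which held nearly the same counts. The same reads may thus stand in more than 1 row, which was not tested.

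**Figure D3:**
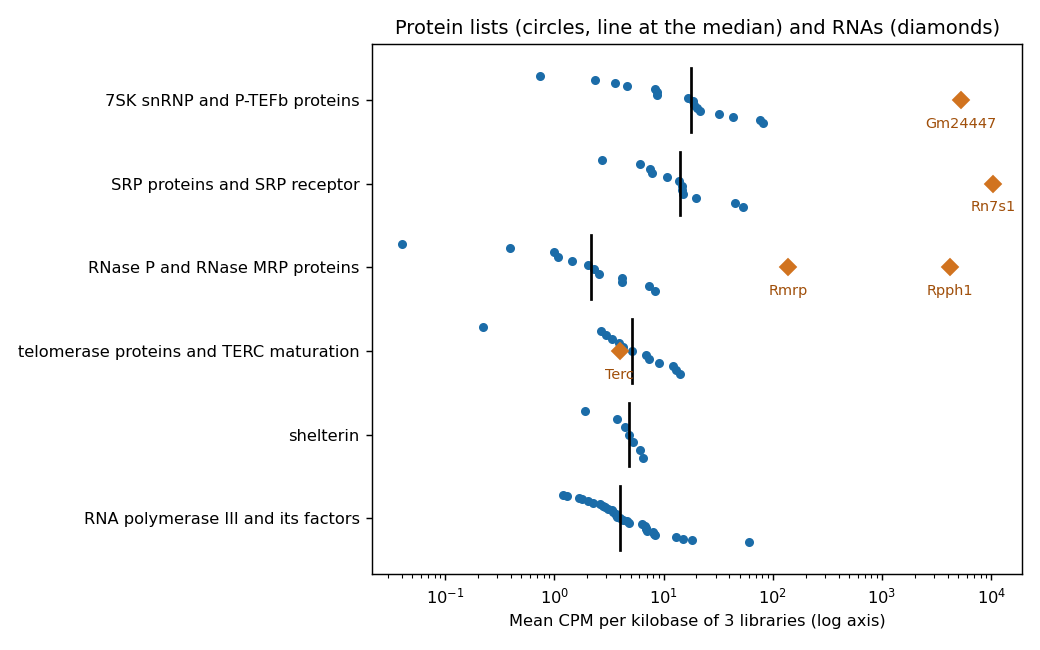
Mean CPM per kilobase over 3 libraries, on a log axis, of the genes in 6 protein lists (circles, 1 per gene, with a line at the list's median) and of the RNAs (diamonds). Rn7s1, Gm24447, Rpph1 and Rmrp lie to the right of each circle of their list, whereas Terc lies inside its list, with 8 of 13 genes above it.

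The libraries differed in these RNAs more than in most genes, and library 3 was the lowest for each member that had counts. The 5 member rows with counts, or 4 measurements with 7SL counted once, varied between libraries beyond counting error. The test was a chi-square test of homogeneity with TMM-scaled library sizes, Benjamini-Hochberg adjusted over 23317 rows. It also called 70.0% of all rows tested and 79.2% of those at a mean CPM of 10 or more, so it alone sets the members apart little. The adjusted p was 7.8e-73 for Rmrp and 0.000179 for Terc, and for Rn7s1, Rn7s2 and Rpph1 it was too small for the calculation to represent. Without library 2 the adjusted p of Terc was 0.079, and over the other alternatives at which it was tested it lay between 0.000153 and 0.0328. The coefficient of variation was 44.5% for Rn7s1, 47.3% for Rmrp, 54.0% for Terc and 60.8% for Rpph1. The first, second and last of these exceeded 96.4%, 97.0% and 98.6% of the 8944 rows whose mean CPM was 10 or more. The highest library exceeded the lowest by 2.71-fold at Rn7s1, 2.83-fold at Rmrp, 3.0-fold at Terc and 3.71-fold at Rpph1. A range of at least 2-fold was seen in 7.67% of those 8944 rows. Terc, at a mean of 1.68 CPM, is not among them, so this share is no background for it.

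Rpph1, Rmrp, Terc and the 7SK copies Gm24447, Gm26315 and Gm26035 had the order library 2, 1, 3, and Rn7s1 with its copies Gm26461 and Rn7s6 the order 1, 2, 3. Among the 8944 rows with a mean CPM of at least 10, 16.9% had their lowest value in library 3, 7.50% had the order 2, 1, 3 and 9.44% the order 1, 2, 3. Each of these orders held under the 6 scalings of the libraries tried, over which the highest library exceeded the lowest by 2.71 to 3.06-fold at Rn7s1, 3.71 to 4.04-fold at Rpph1, 2.83 to 3.09-fold at Rmrp, 3.0 to 3.28-fold at Terc and 1.93 to 2.11-fold at Gm24447.

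Other small RNA classes were also low in library 3 at many of their rows. Library 3 was lowest at 21 of 22 snRNA rows, 4 of 5 snoRNA rows, 7 of 7 rRNA rows and 8 of 12 microRNA rows with a mean CPM of at least 10, against 1191 of 7896 (15.1%) protein-coding rows. The misc_RNA class gives no such comparison, since each of its 10 rows at that level is a member or a copy of one. The 21 snRNA rows had the order 2, 1, 3, that of Rpph1, Rmrp and Terc, and the 7 rRNA rows the order 1, 2, 3, that of 7SL. The 12 microRNA rows were less uniform, with 1 in the order 2, 1, 3 and 7 in the order 1, 2, 3. Many of these rows share sequence within their class, so they are not independent. As a share of each library, snRNA rows took 0.325%, 0.393% and 0.277% of counts, snoRNA rows 0.0398%, 0.0491% and 0.0356%, rRNA rows 1.91%, 1.63% and 1.30%, microRNA rows 15.1%, 12.9% and 8.36%, and protein-coding rows 59.0%, 60.6% and 65.3%. Library 3 also had counts at 30433 rows, against 24939 and 26207 in libraries 1 and 2. The part of RNA quality, of library making or of the sorted cells in this shared pattern was not tested.

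**Figure D4:**
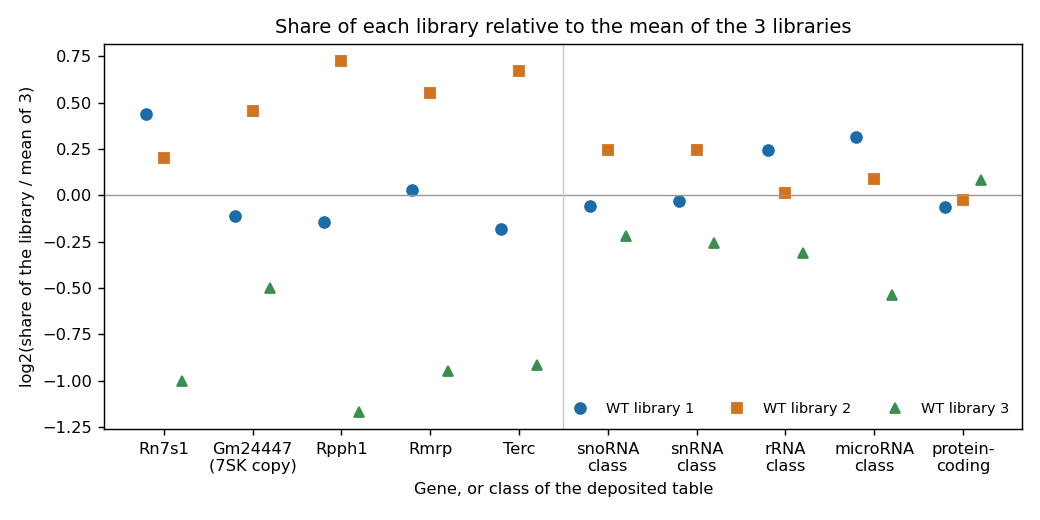
Share of each library taken by a gene (left of the vertical line) or by a class of rows (right of it), as the log2 of its value over the mean of the 3 libraries; points are WT libraries 1, 2 and 3. Library 3 lies below the mean for each RNA on the left and for the snoRNA, snRNA, rRNA and microRNA classes, and above it for protein-coding rows.

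The mRNAs of proteins of the same complexes did not share that pattern. Library 3 was lowest at 0 of 16 genes of the 7SK and P-TEFb list, 1 of 12 of the SRP list, 3 of 12 of the RNase P and RNase MRP list and 2 of 13 of the telomerase list. Summed over each list, library 3 held 2630 CPM of the 7SK list against 1961 and 2328 in libraries 1 and 2, and 755 CPM of the SRP list against 609.9 and 672. The mRNAs of the RNase P and RNase MRP proteins summed to 79.3, 77.9 and 78.7 CPM, so that their sum was almost level while Rpph1 ranged over 3.71-fold. Their median, however, was 2.77, 2.93 and 2.50 log2(CPM + 1) in libraries 1, 2 and 3, which is the order of Rpph1. The medians of the 7SK, SRP and telomerase lists were highest in library 3. By the same chi-square test, 13 of 16, 9 of 12, 7 of 11 and 7 of 13 genes tested in the 4 lists varied between libraries. The share was 70.0% over all rows tested and 79.2% over those at a mean CPM of 10 or more, so these counts set the lists apart little. RNA polymerase III, which makes the members other than Terc, and its factors reached a mean CPM of 10 or more at 26 of 31 genes and had a median of 4.36 ± 0.08 log2(CPM + 1); library 3 was lowest at 5 of the 31. Bdp1, a subunit of its initiation factor, was highest at 164 ± 10.7 CPM, followed by Ssb, the La protein that binds the 3′ ends of its transcripts, at 131 ± 5.06 CPM and Gtf3c1 at 97.2 ± 8.10 CPM, and Brf2 was lowest at 4.17 ± 1.22 CPM.

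Other named structural RNAs gave a mixed picture. Of 22 symbols, 21 were in the table, 4 of these (Rnu11, Rnu7, Rnu3a and Rprl1) had no count, and library 3 was lowest at 8. Of 4 guide RNAs of Cajal bodies, 3 had the order of Rpph1, while Scarna10 had 0, 2 and 2 counts. Scarna2 was at 43.9, 63.8 and 35.3 CPM, Scarna13 at 14.9, 25.7 and 12.9 CPM and Scarna6 at 3.02, 5.45 and 2.73 CPM. The Y RNAs, which RNA polymerase III also makes, did not, since Rny1 had 62, 11 and 11 counts and Rny3 103, 47 and 40, high in library 1 alone. The long nuclear RNAs were highest in library 3, with Malat1 at 8125, 9502 and 13154 CPM and Neat1 at 340, 281 and 509 CPM.

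Patterns most like those of the members were sought among 8943 genes, as the Euclidean distance between log2(CPM + 1) values over the 3 libraries, each gene centred on its mean; 3 libraries make this a description only. Nearest to Rn7s1 was Rn7s2 (distance 4.1e-05), then Gm26461 (0.0497), which share its sequence. Nearest to Rmrp was the snoRNA Snord17 (0.223), with 46.4, 62.0 and 27.5 CPM, then the immunoglobulin segment Igkv8-21 (0.274), with 13.4, 25.0 and 8.47 CPM. Nearest to Rpph1 was the immunoglobulin segment Ighv1-62-3 (0.272), with 9.79, 21.6 and 5.93 CPM, and then Rmrp (0.327). Nearest to Terc were the 7SK copies Gm24447 (0.00671) and Gm26315 (0.00676), although the pseudocount of 1 shrinks the differences of a gene as low as Terc.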

How the data were processed

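The deposited table holds the authors' raw counts of reads, whole numbers without normalization, for 48709 mouse rows; the submitters' processing notes name FastQC, Trimmomatic 0.38, STAR 2.6.1d, featureCounts 1.6.3 and DESeq2 1.18.1, without settings. These notes list human builds (hg38, GRCh38), yet the gene IDs are mouse, and 42754 of 48349 IDs shared with GENCODE M21 (GRCm38), with 6 of 6 shared member IDs, have identical coordinates. Columns are named as controls 1 to 3 and were matched to WT 1 to 3 by number.

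CPM used library totals. Ratios were taken within libraries as log2 of CPM per kilobase of exon plus 0.1. Variation between libraries was tested by a chi-square test of homogeneity with TMM factors (edgeR 4.0.16, R 4.3.3). It covered rows with at least 10 counts, at a Benjamini-Hochberg adjusted p of 0.05. The test was tried on simulated counts with counting error and planted changes but no other spread. That trial cannot show how the test behaves at the spread between these libraries. The common biological coefficient of variation (edgeR) was 0.2664 over 16614 genes. Copies were found by shared words of 50 bases and by BLAST+ 2.17.0. Numbers of aligned rows took alignments on the same strand to rows of the misc_RNA, ribozyme, snRNA and lincRNA classes. DESeq2 1.42.0 size factors, other denominators, pseudocounts, minimum counts and each library left out were alternatives. Members, the 13 gene lists and the 16 gene pairs were chosen with earlier results of these data known; 10 further pairs and the Rn7sk copies among them were chosen after counts were seen. Genes named were the members, the 3 highest and the lowest gene of each partner list, genes of the pairs, rows within 5 kb, rows sharing words and the 2 nearest patterns; not each such gene is printed, 1 gene and 1 sequence are not reported here, and Cdk9, Mepce, Pop1, Rny1, Rny3, Scarna6, Scarna10, Scarna13, the marker genes, Neat1 and Rpp21 were named after their values were seen.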

Additional observations from a re-analysis of the deposited data

How the results depend on the processing

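No paired analysis was possible because the 3 libraries form 1 group. The order of libraries at each member held in the 6 scalings tried. Levels moved by more than 1 SD only where the unit changed. Per 1000000 counts of nuclear protein-coding genes, Rn7s1 was at 5298, Rn7s2 at 5298, Rmrp at 63.7, Rpph1 at 2256 and Terc at 2.85; per kilobase they were at 10340, 10339.5, 138, 4155 and 3.97. Not divided by length, the log2 ratios were -5.07 for Rmrp to Rpph1, 4.40 for Rmrp to Terc, 9.47 for Rpph1 to Terc, 0.27 for Terc to Tert, 5.96 for Rpph1 to Parp2, 2.76 for Rmrp to Ccdc107 and 3.24 for Terc to Actrt3, and Gm24447 to Malat1 reversed to -2.54. With a pseudocount of 1, Rmrp to Terc was 4.77, Rpph1 to Terc 9.60, Terc to Tert 1.93 and Terc to Actrt3 2.17. Per kilobase, list medians were 4.20 for the 7SK list, 3.85 for SRP, 1.66 for RNase P and RNase MRP, 2.61 for telomerase, 2.44 for shelterin, 2.36 for RNA polymerase III and 3.59 for other structural RNAs; the last was 1.44 with a pseudocount of 0.1 and 2.27 when genes under a mean CPM of 0.5 were left out.

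With each library left out in turn, Rn7s1 ranged from 2555 to 3878 CPM, Rmrp from 28.8 to 46.5, Rpph1 from 895 to 1694 and Terc from 1.19 to 2.08. The log2 ratio of Rmrp to Rpph1 ranged from -4.91 to -4.71. The rows that varied between libraries numbered 8275 without library 1 and up to 12273 in the other fits on 2 libraries, against 16333; fewer samples enter those fits. Member rows that varied were 4 without library 2, where Terc dropped out, and 5 otherwise; at a minimum of 100 counts they were 4, since Terc was not tested. The 7 fixed pairs with Rn7sk and that of Rpph1 with Rprl1 gave no ratio, because a gene had no count. Depth limits the ratios that use Terc (15 to 49 counts per library), Tert (17 to 26) or Actrt3 (1 to 2).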
